A study of Mus musculus with 24 samples.

Results

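Primary fibroblasts from the hindlimb muscle of newborn C57 BL/10 mice were compared after 24 h in medium conditioned by aldosterone-treated C57 myotubes and after 24 h in medium conditioned by vehicle-treated C57 myotubes. These are 6 of the 24 libraries of the series, 3 in each medium, chosen by the labels alone, and all measured genes were compared. The donor myotubes, grown from myoblasts of mice less than 5 days old, were exposed for 48 h to aldosterone at 1 µM or to the solvent DMSO at 0.001%. The fibroblasts got the medium those myotubes conditioned over the next 15 h, after a change meant to leave the hormone behind. Its horse serum was charcoal-stripped, which removes steroids. The same design was run with mdx cells, which carry the Dmd mdx mutation on the C57BL/10 background, and those 6 fibroblast libraries share the estimate of spread used below. The libraries are labelled biological replicates 1 to 3. The labels do not say whether a number stands for a separate preparation of cells or of medium, so p-values measure the spread between these samples, which may be technical. No library of fibroblasts in unconditioned medium or in medium with aldosterone added directly was analysed here.

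Fibroblasts of skeletal muscle make the collagens, fibronectin and proteoglycans of the matrix around muscle fibres, and they respond to secreted signals of their neighbours, among them TGF-beta, BMP, Wnt and growth factor ligands. Aldosterone is the natural ligand of the mineralocorticoid receptor, encoded by Nr3c2, and at high concentration it also binds the glucocorticoid receptor, encoded by Nr3c1. In many tissues either receptor induces a shared set of genes that includes Fkbp5, Per1, Tsc22d3 and Sgk1. Medium conditioned by treated myotubes can carry proteins and metabolites that the myotubes released.

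Totals of the 6 libraries ranged from 19297212 to 38764711 counts. Levels are given as CPM, a gene's count scaled to the size of its library, which allows comparison between libraries but not between genes of different length. Defining fibroblast markers were present in each library: Pdgfra lay between 345 and 481 CPM. Of the 20 markers listed, Tcf21 alone was at 0 in all 6. Endothelial markers summed to 78.3 to 101 CPM, macrophage and leukocyte markers to 18.8 to 34.3 CPM, adipocyte markers to 129.7 to 151 CPM and epithelial markers to 23.4 to 29.0 CPM. Schwann cell and neuron markers summed to 200 to 320 CPM. Pericyte and smooth muscle markers summed to 2243 to 3140 CPM, in a list that includes Acta2, at 918 to 1844 CPM. Sox17, Cd3e, S100a8, S100a9, Lep and Krt14 were at 0 in all 6, and no other member of these lists was. One library stood apart. Vehicle replicate 1 was the deepest of the 6 and lay at 42.0 on the second principal component, where the other 5 lay between -19.0 and 8.84. In it the 22 myogenic markers summed to 162 CPM, against 19.3 to 86.5 CPM in the other 5, and fibroblast markers summed to 18292 CPM against 24555 to 31917 CPM. Most of that fibroblast marker sum came from Col1a1, Col1a2 and Col3a1, at 7297, 4617 and 3763 CPM in this library. Pdgfra, by contrast, was highest in it, at 481 CPM, so the sum mainly reflects collagen. Vehicle replicate 1 was also listed first in the count table, followed by the 2 deepest mdx libraries. What part this library has in each difference below was not tested apart from leaving it out. In bulk libraries such as these, fewer cells of a type and less RNA per cell cannot be told apart. Dmd, the gene mutated in mdx, lay between 24.5 and 39.8 CPM in the C57 libraries and between 7.67 and 13.4 CPM in the mdx libraries.

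The comparison asked how fibroblasts differ between medium of hormone-treated myotubes and medium of vehicle-treated myotubes. The fibroblasts were given no hormone directly, but no measurement of hormone left in the medium was used. The differences were small and spread over many genes. Most genes of mitosis and of the ribosome and several of amino acid synthesis lay higher in aldosterone medium. Single genes lay lower, among them Spp1, Tgfb1, Fgf2, Vegfa and the proteoglycan enzymes Chst11 and Xylt1. Of these, Spp1 and Tgfb1 belonged to a fixed set of genes. Fgf2 and Vegfa, named for a small p within their list, and Chst11 and Xylt1 were picked after their values were seen. The growth factor, TGF-beta and matrix lists had members on both sides. No single gene reached the threshold. Tested with edgeR (quasi-likelihood, Benjamini-Hochberg adjustment over 16671 genes), 0 genes (0%) had an adjusted p below 0.05. At an unadjusted p below 0.05 there were 1996 genes, which is 12% of those tested, 940 higher (5.64%) and 1056 lower (6.33%). DESeq2, run on the same 12 fibroblast libraries, called 74 genes, 31 higher (0.186%) and 43 lower (0.258%). The edgeR count differed with the libraries in the fit. It was 44 without mdx aldosterone replicate 2 and 77 without the 3 deepest libraries. With the C57 libraries alone it was 5, and DESeq2 then called 431. Leaving out 1 of those 6 in turn gave 79 without vehicle replicate 1, 25 without vehicle replicate 3, 1 without aldosterone replicate 2 and 0 without each of the other 3. The cause of these shifts was not tested. The unadjusted count was 982 without vehicle replicate 1 and 1093 without aldosterone replicate 3. All 3 aldosterone-medium libraries lay above all 3 vehicle-medium libraries for 1805 genes (10.8%) and below them for 1783 genes (10.7%). Without vehicle replicate 1, where only 2 vehicle libraries remain to be cleared, these shares were 14.8% and 14.3%. Genes without overlap stay so when a library is left out, so these shares can only rise. The median log2 change over all genes was -0.00. Because no gene passed the edgeR test, differences below are given as values, and each count of members is to be read against these shares.

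Ccn3 (ENSMUSG00000037362, chromosome 15, 54609098 to 54617435 in mm39) had the smallest p. It encodes a secreted matricellular protein of the CCN family and lay at 178, 183 and 192 CPM in vehicle medium and at 248, 264 and 284 CPM in aldosterone medium. The media did not overlap, and each spread was narrow. Its log2 change was 0.53 (SE 0.07), with an adjusted p of 0.0621 by edgeR and 2.91e-06 by DESeq2. Over 28 alternative settings the log2 change stayed between 0.47 and 0.58, and the adjusted p ranged from 2.94e-09 to 0.662. Limch1 (ENSMUSG00000037736, chromosome 5, 66903170 to 67214501), whose protein binds non-muscle myosin and promotes stress fibres, came next, at 29.4, 38.2 and 37.1 CPM in vehicle medium and at 55.6, 56.3 and 60.5 CPM in aldosterone medium. Every aldosterone-medium library lay above every vehicle-medium one (log2 change 0.72, SE 0.11, edgeR adjusted p = 0.220, DESeq2 adjusted p = 1.92e-05).

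**Figure D1:**
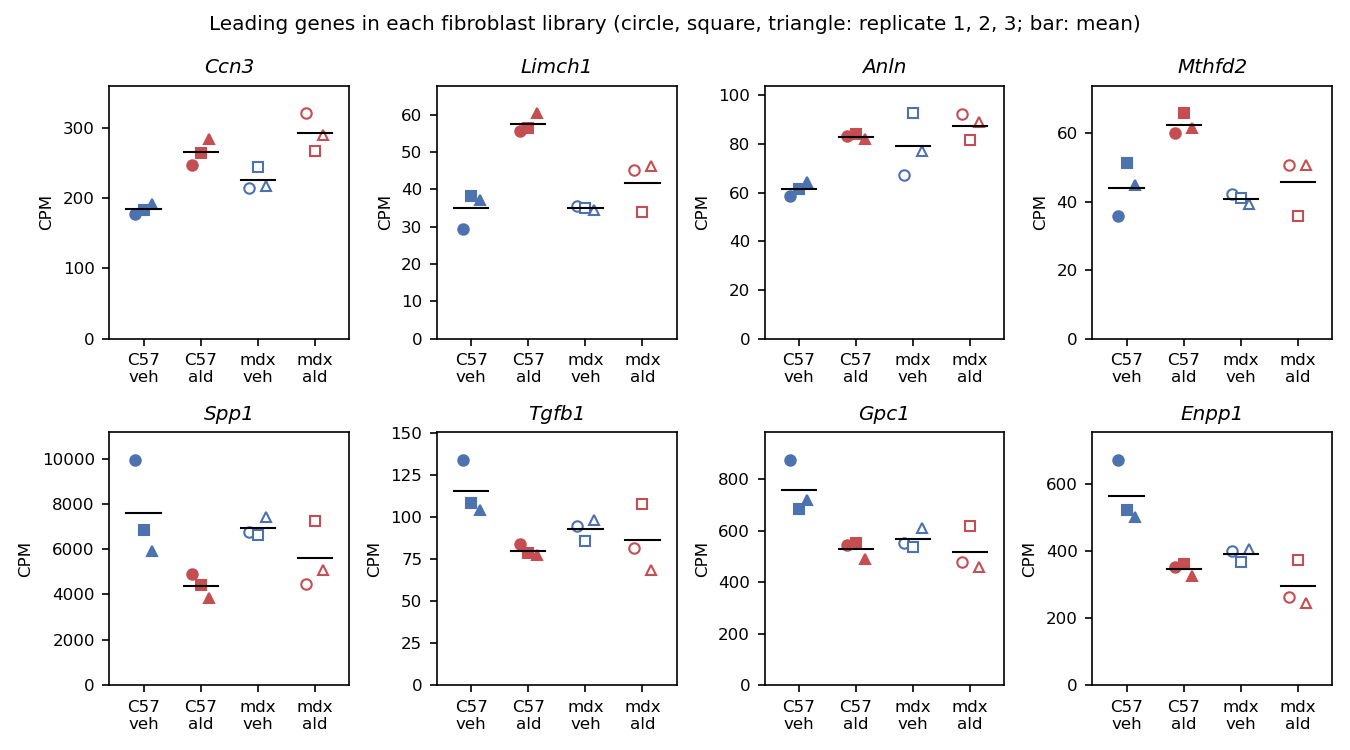
CPM of 8 genes in each of the 12 fibroblast libraries, with C57 filled and mdx open, vehicle medium blue and aldosterone medium red; circles, squares and triangles are replicates 1, 2 and 3 and bars are group means. In C57 the 2 media do not overlap for any of the 8 genes, which were picked for their differences.

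The other genes among the 15 smallest p were mixed in function. Higher in all 3 aldosterone-medium libraries were Ect2, a regulator of the dividing cell's cleavage furrow, Anln, the furrow scaffold anillin, Tspan7, a tetraspanin of the cell surface, Hccs, which attaches heme to cytochrome c, and Gdpd2. Ect2 lay at 18.9, 18.9 and 18.9 CPM in vehicle medium and at 24.0, 27.8 and 24.5 CPM in aldosterone medium (log2 change 0.42), and its vehicle values were nearly identical. Gdpd2 was close to the limit of detection, at 0.125, 0.284 and 0.251 CPM in vehicle medium and at 0.902, 0.781 and 0.888 CPM in aldosterone medium, so that its log2 change of 1.99 rests on few counts. Lower in all 3 were Zdhhc18, a palmitoyltransferase, Zfp469, Cgnl1, a junction protein, Mitf, a transcription factor of lysosomal and pigment genes, Adcy7, an adenylyl cyclase, Kdsr, an enzyme of ceramide synthesis, Klhl3, an adaptor that marks WNK kinases for degradation, and Ube2ql1. Adcy7 lay at 91.1, 102 and 79.3 CPM in vehicle medium and at 50.5, 62.0 and 46.9 CPM in aldosterone medium (log2 change -0.77, SE 0.15). Mitf lay at 54.5, 46.0 and 46.6 CPM in vehicle medium and at 32.7, 31.0 and 29.8 CPM in aldosterone medium (log2 change -0.65, SE 0.13). Neither pair of groups overlapped. Apart from Ccn3, Limch1 and Zdhhc18, the edgeR adjusted p of these genes was 0.327, and Zdhhc18 had 0.295.

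Genes of mitosis lay almost all on one side. Of 30 tested, 30 had a positive log2 change, from 0.22 to 0.46, and 28 lay higher without overlap, against 10.8% of all genes. At an unadjusted p below 0.05 there were 28, all higher, against 5.64% of all genes. By the edgeR test adjusted over all genes 0 passed, and the lowest adjusted p was 0.327. DESeq2 called 5 of them, all higher, against 0.186% of all genes. Their summed level was 793, 813 and 833 CPM in vehicle medium and 1007, 1074 and 992 CPM in aldosterone medium. The ranges did not overlap, and vehicle replicate 1 lay close to the other vehicle libraries. The median log2 change was 0.31 and was 0.33 without that replicate. Hmmr and Bub1b were the 2 members whose groups overlapped.

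Several stages of division were covered. Ccnb1, the cyclin that drives entry into mitosis, lay at 23.2, 22.2 and 24.0 CPM in vehicle medium and at 31.4, 32.5 and 31.4 CPM in aldosterone medium (log2 change 0.46, SE 0.11), with all aldosterone values above all vehicle values. Its kinase partner Cdk1 lay at 26.5, 30.2 and 30.5 CPM in vehicle medium and at 35.8, 40.2 and 39.0 CPM in aldosterone medium (log2 change 0.40). Ccna2, the cyclin of S phase and early mitosis, lay at 25.1, 27.4 and 26.9 CPM in vehicle medium and at 32.6, 37.7 and 34.9 CPM in aldosterone medium (log2 change 0.41). Plk1, a kinase of spindle assembly, Top2a, which untangles DNA, and Mki67, which coats mitotic chromosomes, were higher without overlap as well, with log2 changes of 0.37, 0.33 and 0.26. Cdc20, an activator of the anaphase-promoting complex, lay at 38.7, 39.5 and 40.5 CPM in vehicle medium and at 51.7, 51.1 and 51.1 CPM in aldosterone medium. Anln, named above for its p, had the log2 change 0.44 from 58.6, 61.6 and 64.2 against 83.2, 84.0 and 82.0 CPM. All these differences were of similar size, at most 0.46 on the log2 scale.

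Because these genes lay on one side together, promoters of 3 of them are shown. Cell cycle genes are known to share 2 short promoter elements, the CCAAT box bound by NF-Y and the cell cycle homology region (CHR) bound by the DREAM and MuvB complexes. In the 250 bases before annotated starts (RefSeq, GRCm38.p6, a different build from the mm39 of the counts), the letters TTTGAA of the CHR, on either strand, were present in 10 of 27 promoters of 26 mitosis genes (37%) and in 1555 of 14488 promoters of all genes tested (10.7%). CCAAT, on either strand, was present in 22 of 27 (81.5%) and in 5087 of 14488 (35.1%). Both together were present in 9 of 27 (33.3%) against 3.92%. These matches describe the list and are no test of any factor here. The 150 bases before the start are given 5′ to 3′ for 3 members with both elements, in capitals wherever either element occurs on either strand. Their positions are Cdk1 chr10:69352913-69353062, minus strand; Cdc20 chr4:118437344-118437493, minus strand; and Ube2c chr2:164769779-164769928, plus strand.
Cdk1: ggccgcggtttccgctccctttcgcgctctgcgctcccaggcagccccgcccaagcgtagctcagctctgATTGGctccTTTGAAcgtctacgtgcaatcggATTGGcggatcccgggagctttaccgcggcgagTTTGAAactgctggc
Cdc20: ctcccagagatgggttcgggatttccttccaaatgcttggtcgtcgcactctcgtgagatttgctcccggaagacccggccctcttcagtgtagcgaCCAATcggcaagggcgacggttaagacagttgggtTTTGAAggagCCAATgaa
Ube2c: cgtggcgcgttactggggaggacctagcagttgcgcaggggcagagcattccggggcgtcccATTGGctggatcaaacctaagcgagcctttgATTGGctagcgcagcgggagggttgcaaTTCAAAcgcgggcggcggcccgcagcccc
Cdk1 and Cdc20 appear above. Ube2c, the ubiquitin-conjugating enzyme of the anaphase-promoting complex, lay at 16.4, 15.6 and 15.4 CPM in vehicle medium and at 19.6, 22.1 and 20.5 CPM in aldosterone medium (log2 change 0.39), without overlap.

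Genes of DNA replication and of the G1 to S transition followed less tightly. Of 33 tested, 32 had a positive log2 change, with a median of 0.16. Without overlap 18 lay higher and 0 lower, against 10.8% and 10.7% of all genes. Uhrf1, which maintains DNA methylation at replication forks, lay at 31.6, 31.0 and 30.7 CPM in vehicle medium and at 37.2, 36.5 and 37.0 CPM in aldosterone medium (log2 change 0.25). Tyms, thymidylate synthase, lay at 13.4, 13.3 and 15.0 CPM in vehicle medium and at 16.8, 16.8 and 16.6 CPM in aldosterone medium (log2 change 0.27). Cdt1, a licensing factor, overlapped between the media. Ccnd3, a G1 cyclin, lay at 91.2, 91.1 and 89.5 CPM in vehicle medium and at 95.7, 111 and 102 CPM in aldosterone medium (log2 change 0.18). Without vehicle replicate 1 the median was 0.22 and 25 members lay higher without overlap, against 14.8% of all genes in that comparison. Genes of p53 and growth arrest showed no shift of this kind, with 3 of 26 higher and 1 lower without overlap and a median of 0.02.

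**Figure D2:**
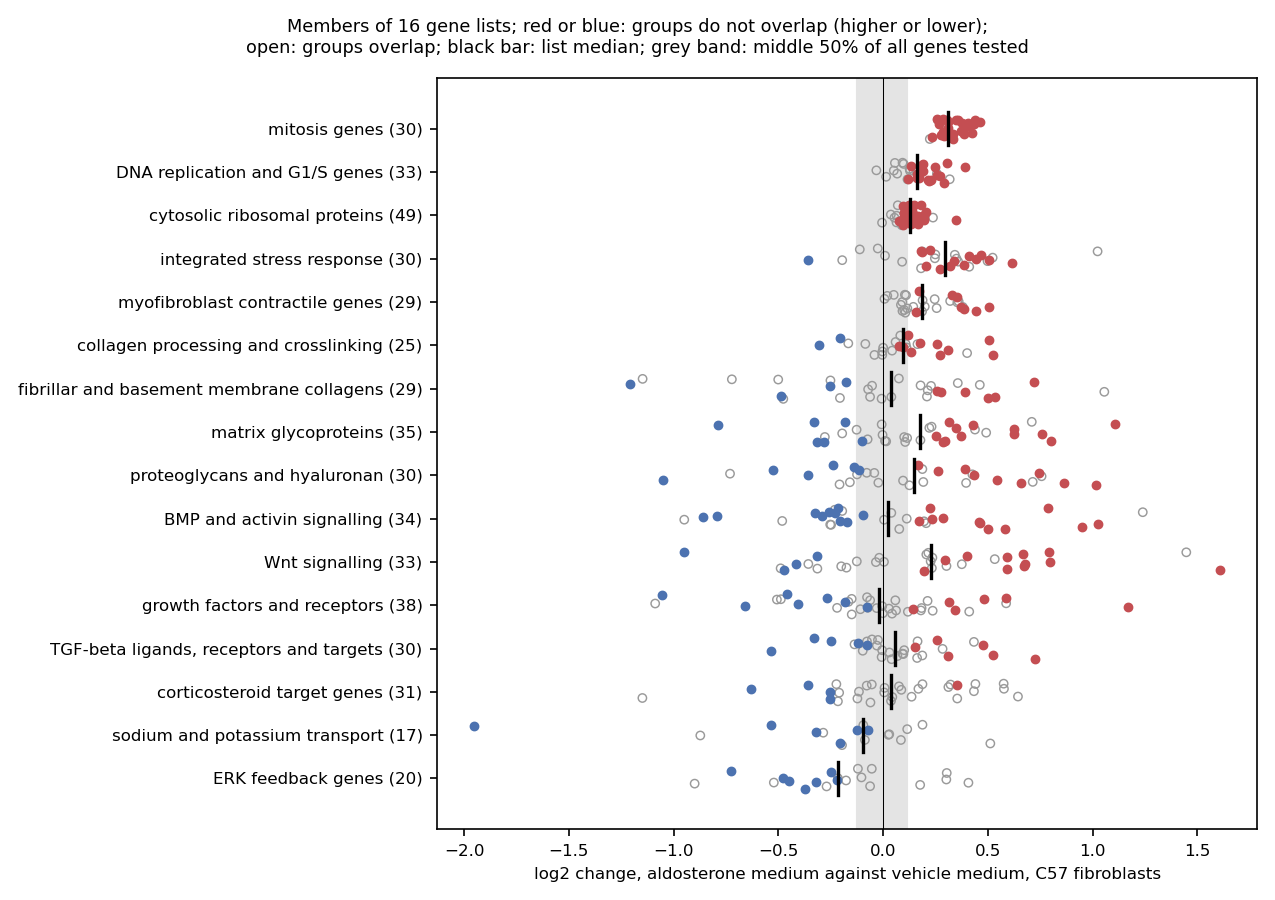
Log2 change in C57 fibroblasts of each member of 16 lists, with the number tested in brackets; red and blue points are members whose media do not overlap, open points overlap, black bars are list medians and the grey band holds the middle 50% of all genes tested. Mitosis genes sit between 0.22 and 0.46, while the matrix and ligand lists spread to both sides of 0.

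Cytosolic ribosomal protein genes, which encode the protein part of the ribosome, differed by less. Of 49 tested, 48 had a positive log2 change, 38 lay higher without overlap and 0 lay lower, against 10.8% and 10.7% of all genes. At an unadjusted p below 0.05 there were 7, beside 12% of all genes, and 0 passed by edgeR after adjustment or by DESeq2. Their summed level was 20276, 19970.4 and 20614 CPM in vehicle medium and 21979.7, 21713 and 22759.9 CPM in aldosterone medium, again without overlap. The median log2 change was 0.13, the same without vehicle replicate 1. Rpl32 lay at 359.8, 370.4 and 381 CPM in vehicle medium and at 419, 427 and 435 CPM in aldosterone medium (log2 change 0.20, edgeR adjusted p = 0.371). These are short transcripts, and short genes lay slightly higher in general: the fifth of genes with the shortest models had a median log2 change of 0.04 and the fifth with the longest a median of -0.02. The part of transcript length in the ribosomal protein values was not tested. Many of these genes have near-identical processed copies, so single members are less certain than their sum.

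The integrated stress response, in which the transcription factor ATF4 raises amino acid synthesis and uptake, was represented by 30 genes. In aldosterone medium 13 lay higher without overlap and 1, Ddit4, lay lower, against 10.8% and 10.7% of all genes. The median log2 change was 0.30. Besides Atf4 and Vldlr, a lipoprotein receptor, the higher members make or carry amino acids or, like Pck2 and Mthfd2, are mitochondrial enzymes of linked pathways. Phgdh, the first enzyme of serine synthesis, lay at 116, 137 and 121 CPM in vehicle medium and at 159.5, 160.0 and 152 CPM in aldosterone medium (log2 change 0.34, SE 0.09). Mthfd2, a mitochondrial enzyme of folate metabolism, lay at 35.9, 51.4 and 44.9 CPM in vehicle medium and at 60.0, 65.9 and 61.5 CPM in aldosterone medium (log2 change 0.51, SE 0.14). Slc3a2, the shared chain of amino acid exchangers, lay at 115, 140.4 and 138 CPM in vehicle medium and at 160.1, 170.0 and 159.9 CPM in aldosterone medium (log2 change 0.32, SE 0.08). In each of these 3 every aldosterone value exceeded every vehicle value, and vehicle replicate 1 was the lowest. Asns, asparagine synthetase, Psat1 and Pck2 behaved alike, with log2 changes of 0.41, 0.44 and 0.47. Atf4 itself lay at 175, 211 and 199.6 CPM in vehicle medium and at 228, 227 and 229 CPM in aldosterone medium (log2 change 0.23). The stress regulators Trib3, Chac1 and Atf3 overlapped between the media. DESeq2 called Slc3a2 and Mthfd2, both higher, beside 0.186% of all genes called higher. Without vehicle replicate 1 the median was 0.18.

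ATF4 and its partners bind the CARE element. TGATGNAA, on either strand, was present in 9 of 31 promoters of 26 genes of this list (29%) and in 292 of 14488 promoters of all genes tested (2.02%), in the same 250-base window. Such matches describe the list and are no test of any factor here. The window is given for 2 members, with the match in capitals: Asns chr6:7693210-7693459, minus strand; and Pycr1 chr11:120643749-120643998, minus strand.
Asns: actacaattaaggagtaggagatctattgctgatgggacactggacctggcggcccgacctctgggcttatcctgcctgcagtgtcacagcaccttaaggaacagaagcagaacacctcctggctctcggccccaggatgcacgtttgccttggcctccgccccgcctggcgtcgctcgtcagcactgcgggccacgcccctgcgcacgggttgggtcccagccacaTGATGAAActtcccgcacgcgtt
Pycr1: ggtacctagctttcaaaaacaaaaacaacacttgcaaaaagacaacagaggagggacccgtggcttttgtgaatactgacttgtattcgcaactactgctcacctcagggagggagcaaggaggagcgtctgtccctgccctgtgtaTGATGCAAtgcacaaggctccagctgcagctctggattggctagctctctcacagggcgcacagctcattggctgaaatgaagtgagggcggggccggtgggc
Asns lay at 82.4, 103 and 91.6 CPM in vehicle medium and at 116, 133 and 118 CPM in aldosterone medium. Pycr1, an enzyme of proline synthesis, lay at 22.5, 31.8 and 30.8 CPM in vehicle medium and at 36.0, 38.6 and 36.4 CPM in aldosterone medium (log2 change 0.39, or 0.24 without vehicle replicate 1). Not every match went with a difference: Slc7a11, the cystine transporter, also holds the letters in this window and lay at 20.1, 21.4 and 17.4 CPM in vehicle medium and at 20.1, 19.3 and 18.6 CPM in aldosterone medium, with overlapping groups and a log2 change of -0.03. Atf3 and Chac1, which overlapped between the media as given above, hold the letters too.

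**Figure D3:**
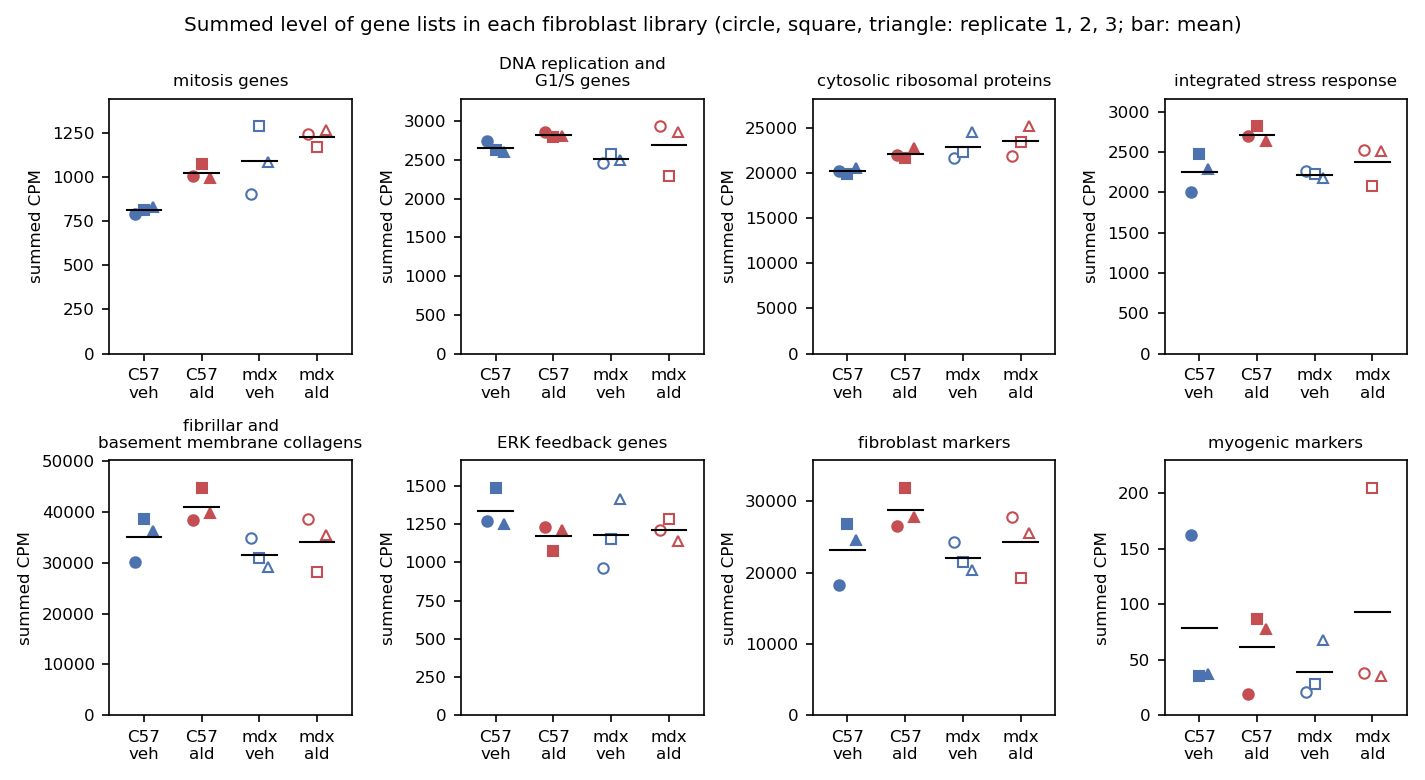
Summed CPM of the members of 8 lists in each of the 12 fibroblast libraries (C57 filled, mdx open, vehicle medium blue, aldosterone medium red; circles, squares and triangles are replicates 1, 2 and 3, bars are means). In C57 the media do not overlap for mitosis, DNA replication, ribosomal protein, integrated stress response and ERK feedback genes, the last being lower in aldosterone medium, and C57 vehicle replicate 1 has the lowest fibroblast marker sum and the highest myogenic marker sum of the 6 C57 libraries.

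Matrix genes are the main product of these cells, and they did not shift as 1 group. By FPKM, the authors' value per length of gene, Spp1, Col1a1 and Fn1 were abundant, at means over the 6 libraries of 3312, 1583 and 1501 FPKM. Spp1 (ENSMUSG00000029304, chromosome 5, 104582984 to 104588916), which encodes osteopontin, a secreted phosphoprotein that binds integrins, lay at 9963, 6867 and 5909 CPM in vehicle medium and at 4886, 4419 and 3849 CPM in aldosterone medium. It was lower in each aldosterone-medium library (log2 change -0.79, SE 0.22, edgeR adjusted p = 0.327), and the highest of the 6 values was that of vehicle replicate 1. Without that library the log2 change was -0.54. Fn1, fibronectin, lay at 19912, 21844 and 19525 CPM in vehicle medium and at 17735, 19411 and 16800.1 CPM in aldosterone medium (log2 change -0.18), apart by a narrow gap. Col1a1 lay at 7297, 11941 and 10657 CPM in vehicle medium and at 11654, 14703 and 11925 CPM in aldosterone medium, with overlap. Vehicle replicate 1 was the lowest library, and the log2 change of 0.36 became 0.18 without it. Col3a1 likewise overlapped, at 3763, 4688 and 4297 against 4478, 5415 and 4848 CPM.

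Of 29 collagen genes tested, 6 lay higher and 4 lower without overlap, against 10.8% and 10.7% of all genes, with a median log2 change of 0.04. Higher were Col1a2, Col5a1, Col5a2, Col8a1, Col8a2 and Col12a1. Col1a2, the second chain of collagen I, lay at 4617, 7147 and 6623 CPM in vehicle medium and at 7409, 8663 and 8080.3 CPM in aldosterone medium (log2 change 0.39, SE 0.16), which was 0.23 without vehicle replicate 1. Lower were Col5a3, Col7a1, Col11a2 and Col16a1. Among 25 genes that process and crosslink collagen, 10 lay higher and 2 lower, beside the same shares of all genes. Pcolce, which enhances removal of the procollagen C-terminal propeptide, lay at 722, 862 and 922 CPM in vehicle medium and at 1019.5, 1029.9 and 1055 CPM in aldosterone medium (log2 change 0.31), whereas Bmp1, the protease it helps, lay at 221, 223 and 225 CPM in vehicle medium and at 191, 196 and 194 CPM in aldosterone medium (log2 change -0.20, SE 0.05). The enhancer and its protease were thus on opposite sides, each without overlap. Loxl3, a lysyl oxidase that crosslinks collagen, lay at 585, 574 and 481 CPM in vehicle medium and at 452, 467 and 408 CPM in aldosterone medium (log2 change -0.31).

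Matrix glycoprotein genes lay on both sides. Of 35 matrix glycoprotein genes, 12 lay higher without overlap, among them Eln, Fbn2, Fbln5, Mfap2, Mfap4 and Mfap5. Lower without overlap were 6, among them Fn1, Spp1 and the latent TGF-beta binding proteins Ltbp2 and Ltbp3. Over all genes these shares were 10.8% and 10.7%. Fbn2, fibrillin 2, lay at 54.1, 86.3 and 81.5 CPM in vehicle medium and at 109.6, 118 and 114 CPM in aldosterone medium (log2 change 0.63, SE 0.18). Eln, elastin, lay at 18.8, 44.5 and 41.9 CPM in vehicle medium and at 67.8, 72.9 and 84.2 CPM in aldosterone medium (log2 change 1.11). In both, vehicle replicate 1 was the lowest library, and without it the log2 changes were 0.45 and 0.80. Ltbp2 lay at 2965, 3002 and 2882 CPM in vehicle medium and at 2420.1, 2394 and 2232 CPM in aldosterone medium (log2 change -0.33, SE 0.09), and Ltbp3 at 1737, 1543 and 1617 against 1447, 1336 and 1244 CPM. Vehicle replicate 1 lay within the other vehicle values for Ltbp2 and above them for Ltbp3. The median of the list was 0.18 and 0.08 without that replicate.

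Proteoglycan genes lay on both sides. Of 30 proteoglycan and hyaluronan genes, 9 lay higher and 6 lower without overlap, against 10.8% and 10.7% of all genes. Gpc1, a heparan sulfate proteoglycan anchored in the membrane, lay at 876, 684 and 719 CPM in vehicle medium and at 542, 552 and 489.8 CPM in aldosterone medium (log2 change -0.52, SE 0.12). Acan, the large cartilage proteoglycan aggrecan, lay at 41.9, 20.5 and 24.5 CPM in vehicle medium and at 16, 16.7 and 9.62 CPM in aldosterone medium (log2 change -1.05, or -0.68 without vehicle replicate 1). In contrast Aspn, a small leucine-rich proteoglycan, lay at 47.0, 97.6 and 85.5 CPM in vehicle medium and at 114, 161 and 142 CPM in aldosterone medium (log2 change 0.86). None of the 3 overlapped between media. Chst11 and Xylt1 were picked after their values were seen, from the genes DESeq2 called. Xylt1, which starts the sugar chain of proteoglycans, lay at 64.5, 34.7 and 39.8 CPM in vehicle medium and at 27.4, 28.0 and 22.2 CPM in aldosterone medium (log2 change -0.85, or -0.52 without vehicle replicate 1). Chst11, a chondroitin sulfotransferase, lay at 187, 137 and 139.9 CPM in vehicle medium and at 102, 94.5 and 99.8 CPM in aldosterone medium (log2 change -0.65). Enpp1 and Ank, which together supply extracellular pyrophosphate, an inhibitor of mineral formation, were picked in the same way. Enpp1 lay at 673, 522 and 501 CPM in vehicle medium and at 352, 362 and 326 CPM in aldosterone medium (log2 change -0.71) and Ank at 725, 618 and 559 CPM in vehicle medium and at 423, 424 and 386 CPM in aldosterone medium (log2 change -0.62), without overlap. In all 4 genes vehicle replicate 1 had the highest value, and the media did not overlap.

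Signalling genes were mixed as well. Tgfb1 (ENSMUSG00000002603, chromosome 7, 25386427 to 25404502), the ligand best known for driving matrix synthesis in fibroblasts, lay at 134, 108 and 104 CPM in vehicle medium and at 83.8, 78.4 and 77.2 CPM in aldosterone medium. All 3 aldosterone values were lower (log2 change -0.53, SE 0.15, edgeR adjusted p = 0.327, DESeq2 adjusted p = 0.0368), and without vehicle replicate 1 the log2 change was -0.41. Over 30 TGF-beta ligands, receptors and targets, 6 lay higher and 5 lower without overlap, against 10.8% and 10.7% of all genes. The target Ccn2 overlapped, at 2013, 1851 and 1850.2 against 2108, 1567 and 2318 CPM, as did Postn, periostin, at 154, 335 and 192 against 249.9, 377 and 296 CPM. Ccn5, another CCN family member, lay at 294, 421 and 555 CPM in vehicle medium and at 703, 605 and 791 CPM in aldosterone medium (log2 change 0.72).

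In the BMP and activin list 11 of 34 genes lay higher and 10 lower without overlap, against 10.8% and 10.7% of all genes, with a median of 0.02. Among ligands, Gdf5 lay at 5.82, 3.41 and 4.76 CPM in vehicle medium and at 2.13, 3.12 and 2.55 CPM in aldosterone medium (log2 change -0.86, SE 0.21) and Bmp2 at 24.4, 20.2 and 14.0 against 12.7, 12.5 and 8.84 CPM, both lower, while Bmp4 lay higher at 14.8, 31.5 and 30.4 against 46.1, 52.1 and 57.2 CPM. Among secreted inhibitors, Chrd, chordin, lay at 9.11, 11.8 and 11.8 CPM in vehicle medium and at 15.2, 15.0 and 14.5 CPM in aldosterone medium (log2 change 0.46), and Nog and Fst were also higher, while Grem1, gremlin 1, was lower. Among receptors, Acvr1 lay at 94.2, 98.6 and 91.2 CPM in vehicle medium and at 80.2, 85.4 and 78.8 CPM in aldosterone medium (log2 change -0.22, SE 0.06). Of the BMP target genes Id1 to Id4, Id3 and Id4 lay higher without overlap and Id1 and Id2 overlapped.

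Of 33 Wnt pathway genes, 11 lay higher and 4 lower without overlap, against 10.8% and 10.7% of all genes. The median log2 change was 0.23, or 0.14 without vehicle replicate 1. The receptors Fzd2, Fzd4 and Fzd8, the R-spondins Rspo2 and Rspo3, which enhance Wnt signals, and the secreted Wnt binding proteins Sfrp1 and Sfrp2 were higher. Sfrp2, picked after its values were seen, had the widest spread, at 10.9, 56.3 and 70.5 CPM in vehicle medium and at 131, 129 and 155 CPM in aldosterone medium. Vehicle replicate 1 lay far below its group, and the log2 change of 1.61 (SE 0.73) was 1.13 without it. Lower were the ligands Wnt9a and Wnt10b and the nuclear effectors Lef1 and Tcf7. Wnt10b lay at 23.4, 22.1 and 18.6 CPM in vehicle medium and at 15.3, 16 and 15.0 CPM in aldosterone medium (log2 change -0.47) and Lef1 at 7.35, 8.49 and 6.55 CPM in vehicle medium and at 2.85, 5.78 and 3.14 CPM in aldosterone medium (log2 change -0.95), with no overlap in either.

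Growth factors and their receptors gave 6 higher and 7 lower of 38 without overlap, against 10.8% and 10.7% of all genes. Fgf2, a mitogen for fibroblasts and muscle precursors, lay at 318, 262 and 243 CPM in vehicle medium and at 199, 204 and 196 CPM in aldosterone medium (log2 change -0.46, SE 0.12). Vegfa, the main angiogenic factor, lay at 287, 234 and 228 CPM in vehicle medium and at 188, 198 and 179 CPM in aldosterone medium (log2 change -0.41, SE 0.12). Vehicle replicate 1 was the highest library for both Fgf2 and Vegfa. Over 28 alternative settings their log2 changes lay between -0.54 and -0.34 and between -0.47 and -0.29. The receptors Pdgfra and Fgfr1 were lower too, Pdgfra at 481, 455 and 431 against 384, 407 and 345 CPM (log2 change -0.27). Higher were Vegfd, Fgfr2, Hgf, Igfbp6 and Igfbp2. Igfbp2, which binds insulin-like growth factors and was picked after its values were seen, lay at 241, 439 and 571 CPM in vehicle medium and at 967, 676 and 1172 CPM in aldosterone medium (log2 change 1.17, SE 0.56), a wide spread in both groups.

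Negative feedback genes of ERK signalling, whose transcripts follow the activity of that kinase in many cells, lay mostly lower. Of 20 tested, 16 had a negative log2 change, 7 lay lower without overlap and 0 higher, against 10.7% of all genes lower. The median was -0.22, and -0.19 without vehicle replicate 1. Dusp4, a nuclear ERK phosphatase, lay at 20.3, 21.7 and 15.1 CPM in vehicle medium and at 10.1, 11.5 and 13.0 CPM in aldosterone medium (log2 change -0.72, SE 0.23, edgeR adjusted p = 0.345). Spred3 and Spred2, inhibitors of Raf activation, lay at 44.9, 39.4 and 45.4 against 38.8, 34.1 and 31.0 CPM and at 92.0, 79.4 and 80.4 against 74.0, 74.8 and 67.9 CPM. Dusp5, Etv1, Etv4 and Phlda1 were the other 4. Dusp8 went the other way, with the highest log2 change of the list, 0.41, and overlapping media. In mdx fibroblasts the list had a median of -0.003, and 0 members lay lower without overlap. Immediate early genes showed 1 of 23 higher and 0 lower without overlap.

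Contractile genes of myofibroblasts, the activated state of fibroblasts, all had a positive log2 change, up to 0.51. Of 29, 8 lay higher and 0 lower without overlap, against 10.8% and 10.7% of all genes. Acta2, smooth muscle actin, lay at 918, 1620.2 and 1371 CPM in vehicle medium and at 1659, 1820.4 and 1844 CPM in aldosterone medium. The media did not overlap. Vehicle replicate 1 was lowest here again, and the log2 change of 0.45 was 0.25 without it. Vim, vimentin, had a tight spread at 3874, 4085 and 4047 CPM in vehicle medium and at 4521, 4429 and 4582 CPM in aldosterone medium (log2 change 0.17). The median was 0.19, and 0.12 without that replicate. Fibroblast markers showed a like pattern, with 6 of 18 higher and 1, Pdgfra, lower, beside the same shares of all genes. Among them Ly6a lay at 62.3, 80.9 and 94.8 CPM in vehicle medium and at 112, 101 and 119.9 CPM in aldosterone medium and Dpt, dermatopontin, at 3.84, 7.78 and 9.06 CPM in vehicle medium and at 14.6, 12.1 and 17.4 CPM in aldosterone medium, while their summed level differed by a small overlap between vehicle replicate 2 and aldosterone replicate 1.

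Genes that respond to corticosteroids were examined next. No measurement of hormone left in the medium was used here. By FPKM, Nr3c1 was well above Nr3c2. Nr3c1 lay at 16.3 ± 1.59 FPKM in vehicle medium and 17.6 ± 0.992 FPKM in aldosterone medium, and Nr3c2 at 0.369 ± 0.0196 FPKM in vehicle medium and 0.393 ± 0.0861 FPKM in aldosterone medium (SD, n = 3). Nr3c2 in CPM was 2.76, 2.49 and 2.65 against 2.56, 2.29 and 3.44 CPM (log2 change 0.08), and the media overlapped for both receptors. Of 31 target genes, 1, Tsc22d3, lay higher without overlap and 4 (Mt1, Mt2, Ddit4 and Lpin1) lay lower, against 10.8% and 10.7% of all genes. The palindromic steroid response element, searched by its consensus on both strands, was present in 2 of 36 promoters of these genes (5.56%) and in 0.262% of all promoters in the 250-base window. This describes the list and is no test of any factor here. Tsc22d3, which encodes the leucine zipper protein GILZ, lay at 21.2, 27.7 and 22.6 CPM in vehicle medium and at 28.2, 30.6 and 32.4 CPM in aldosterone medium (log2 change 0.35). Fkbp5 (ENSMUSG00000024222, chromosome 17, 28618068 to 28736501), a co-chaperone of both receptors and a sensitive target, lay at 25.6, 27.1 and 23.1 CPM in vehicle medium and at 21.3, 24.3 and 19.5 CPM in aldosterone medium, with overlap and a log2 change of -0.22 (SE 0.09). Per1 and Sgk1 overlapped, at 33.5, 46.4 and 52.4 against 57.9, 40.4 and 69.7 CPM and 234, 252 and 276 against 316, 206 and 345 CPM. Gpx3, a plasma glutathione peroxidase, lay at 12.6, 12.8 and 19.2 against 22.6, 18.5 and 25.1 CPM and Lcn2, lipocalin 2, at 2.06, 0.888 and 2.87 against 3.72, 2.08 and 3.22 CPM, both with overlap. For Per1, Sgk1, Gpx3 and Lcn2, aldosterone replicates 1 and 3 lay above every vehicle library. Only aldosterone replicate 2, the shallowest of the 6 libraries, overlapped. For Fkbp5 replicates 1 and 3 lay below every vehicle library. The target list summed to 3343, 4067 and 4191 CPM in vehicle medium and to 4819, 3447 and 5248 CPM in aldosterone medium. The part of replicate 2 in these overlaps was not tested. The drug exporter Abcb1a was lower without overlap, at 26.5, 15.0 and 16.4 against 13.0, 11.4 and 9.25 CPM. Vehicle replicate 1 had its highest value, and the log2 change of -0.79 was -0.49 without that library. Of the 15 receptor and steroid-handling genes, 2 lay higher and 2 lower without overlap. Hsd11b1, which regenerates active glucocorticoid, was higher but near the limit of detection, at 0.602, 0.568 and 0.287 against 0.902, 0.833 and 0.629 CPM. Hsd11b2, which inactivates glucocorticoid, lay at 1.08, 1.6 and 1.15 CPM in vehicle medium and at 1.84, 1.93 and 2.40 CPM in aldosterone medium (log2 change 0.70).

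Sodium and potassium transport genes, the classical downstream effectors of aldosterone in kidney, gave 0 of 17 higher and 6 lower without overlap. Over all genes these shares were 10.8% and 10.7%. Fxyd5, a modulator of the sodium pump, lay at 98.0, 62.1 and 67.6 CPM in vehicle medium and at 53.1, 52.9 and 51.2 CPM in aldosterone medium (log2 change -0.54). It was lower in each aldosterone-medium library, and without vehicle replicate 1, the highest value, the log2 change was -0.30.

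Among chemokines and cytokines, 7 of 30 lay higher and 4 lower without overlap, against 10.8% and 10.7% of all genes. C3, the central complement protein, lay at 40.9, 32.8 and 29.9 CPM in vehicle medium and at 21.9, 22.9 and 19.5 CPM in aldosterone medium (log2 change -0.69, SE 0.16), and Cx3cl1, fractalkine, at 209, 186 and 161 CPM in vehicle medium and at 143, 142 and 133 CPM in aldosterone medium (log2 change -0.41), both lower without overlap. Cxcl12 was higher, at 241, 379 and 494 against 694, 512 and 770.0 CPM. Matrix proteases and their inhibitors gave 10 higher and 7 lower of 31, beside the same shares of all genes. Plat, tissue plasminogen activator, lay at 52.8, 56.9 and 60.6 CPM in vehicle medium and at 67.8, 66.1 and 68.1 CPM in aldosterone medium (log2 change 0.25) and Serpinf1 at 419.8, 567 and 559 against 666, 701 and 695 CPM. Cholesterol synthesis genes had 24 of 24 positive log2 changes with a median of 0.17, but 2 lay higher without overlap, and the median was 0.06 without vehicle replicate 1. Clock genes gave 0 of 19 in either direction. Of the genes for prostaglandin synthesis and transport, Ptgs2, cyclooxygenase 2, lay at 361, 476 and 273 CPM in vehicle medium and at 258, 227 and 241 CPM in aldosterone medium and Pla2g4a, which releases its substrate, at 153, 140.4 and 119 CPM in vehicle medium and at 110.0, 109.8 and 103 CPM in aldosterone medium, lower without overlap. Of the 15 tested, Ptgs1 and Abcc4 were lower too, and Ptgis and Hpgd were higher without overlap.

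The mdx fibroblasts received medium of mdx myotubes, so genotype of the cell and genotype of the medium cannot be told apart there. Their control libraries are other samples than those of C57. With the same test, 0 of 16671 genes (0%) passed in mdx and 818 (4.91%) had an unadjusted p below 0.05, and DESeq2 called 0. Without mdx aldosterone replicate 2, 24 genes passed by edgeR. Genes without overlap numbered 679 higher (4.07%) and 777 lower (4.66%). Of the 1805 C57 genes higher without overlap, 131 were so in mdx as well, which is 7.26% of the C57 genes and 19.3% of the mdx genes, and 159 were lower in both, 8.92% and 20.5%. The opposite directions held 18 and 19 genes. Across all genes the log2 changes of C57 and mdx had a Pearson correlation of 0.22, given as a description since genes are not independent. Ccn3 in mdx lay at 215, 245 and 217 CPM in vehicle medium and at 321, 268 and 290.4 CPM in aldosterone medium, a log2 change of 0.38 without overlap. Spp1 in mdx lay at 6757, 6634 and 7420.0 CPM in vehicle medium and at 4452, 7266 and 5071 CPM in aldosterone medium, with aldosterone replicate 2 inside the vehicle range. That mdx library, 1 of the 3 deepest, lay at 30.4 on the second principal component, where only C57 vehicle replicate 1 of the 12 lay higher, with myogenic markers at 205 CPM against 20.6 to 67.6 CPM in the other 5 mdx libraries. For mitosis genes the mdx summed level was 905, 1289 and 1088 CPM in vehicle medium and 1246, 1171 and 1266 CPM in aldosterone medium, with overlap, and the median log2 change was 0.17.

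Whether the response differed by genotype was tested directly. The difference of the 2 effects passed for 0 genes (0%) by edgeR and 0 by DESeq2, with 391 genes (2.35%) at an unadjusted p below 0.05. The smallest p-values belonged to Aloxe3, Acox2, Scara3, Fam83c and Ubl3, with edgeR adjusted p-values of 1.00 in each. Aloxe3, Acox2 and Fam83c lay below 2 CPM in every fibroblast library. Scara3, a scavenger receptor family member, lay at 112, 111 and 109.9 against 105, 107 and 101 CPM in C57 and at 114, 119 and 110.3 against 134, 125 and 131 CPM in mdx, a difference of 0.26 on the log2 scale. For Limch1 the difference, mdx minus C57, was -0.47, and for Cdk1 -0.46, neither past the threshold.

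The C57 myotubes that made the medium had met the hormone itself. For that comparison 2 of 15763 genes (0.0127%) passed by edgeR and 783 (4.97%) had an unadjusted p below 0.05. The difference of the effects, fibroblasts minus myotubes, passed for 5 of 17587 genes (0.0284%), with 1357 (7.72%) at an unadjusted p below 0.05. The 5 were Cdh13, Nr1d1, Hspb1, Mylk2 and Chrd. Ccn3 was low in the myotubes, at 1.87, 5.55 and 3.82 against 0.751, 1.78 and 2.24 CPM, with overlap and a log2 change of -1.23 (SE 0.91). Its difference from the fibroblasts did not pass (edgeR adjusted p = 0.400). Fkbp5 had -0.22 and 0.57 (edgeR adjusted p of the difference = 0.0563). Lcn2 was at 0 CPM in the 3 vehicle myotube libraries and at 0.25, 2.22 and 1.27 CPM with the hormone, so no fold is given, and in the fibroblasts it overlapped between media. Spp1 was lower in both, -0.79 and -0.43. The corticosteroid target list had a median of 0.19 in myotubes and 0.04 in the fibroblasts, where it was -0.02 without vehicle replicate 1, and the mitosis list 0.07 and 0.31. Mitosis genes such as Ccnb1 and Cdk1 were low in the myotubes, with vehicle means of 1.63 and 4.15 CPM, against 23.1 and 29.0 CPM in fibroblasts. The SEs of their log2 changes were 0.68 and 0.53 in myotubes and 0.11 and 0.10 in fibroblasts, so the myotube median is imprecise.

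**Figure D4:**
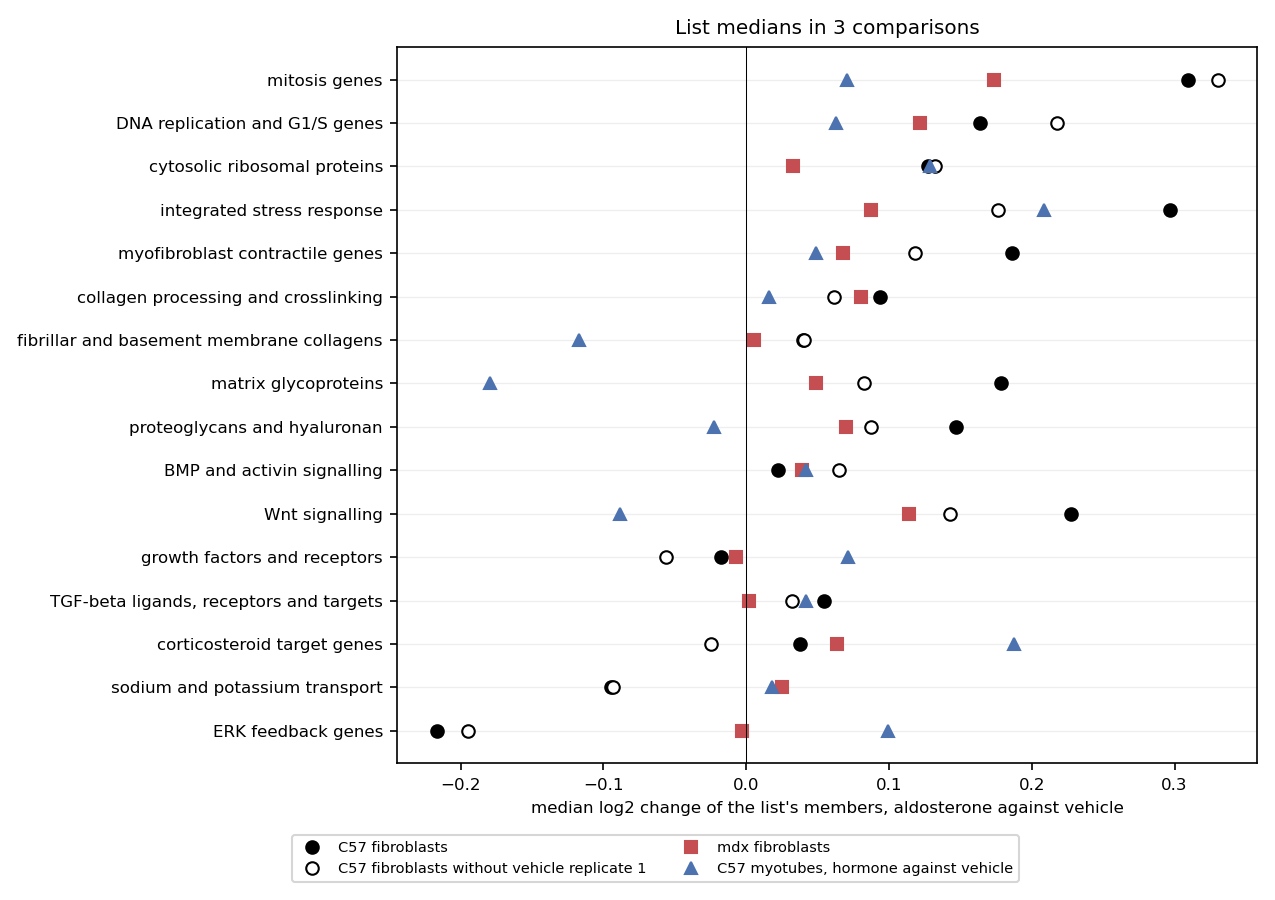
Median log2 change, aldosterone against vehicle, of 16 lists in C57 fibroblasts (black), C57 fibroblasts without vehicle replicate 1 (white), mdx fibroblasts (red squares) and C57 myotubes given the hormone (blue triangles). Mitosis genes have the highest C57 fibroblast median, 0.31, and ERK feedback genes the lowest, -0.22.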

How the data were processed

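Poly(A) RNA of 24 libraries, 8 groups of 3, was sequenced from non-directional libraries, per the labels' protocols, so overlapping and antisense genes cannot be told apart. The authors deposited raw counts per gene (56748 genes) and FPKM values per gene length and library. The submitters' processing notes name featureCounts 1.5.0-p3 and mm39; no aligner is named there. FPKM values were used as deposited by the authors, only to compare levels between genes.

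Counts were filtered (filterByExpr), scaled by TMM and tested with edgeR 4.0.16 (robust quasi-likelihood, R 4.3.3) over the 12 fibroblast libraries, with Benjamini-Hochberg adjustment over 16671 genes and a threshold of 0.05; DESeq2 1.42.0, other filters and scalings, a replicate block and left-out libraries were alternatives. SEs are approximate, from the F statistic. Library totals from 16964960 to 42698139 counts limit the precision of genes of few counts. The script was tested on simulated data.

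The comparison and its gene lists were chosen with earlier results of these data known. Genes were named as a fixed set, as the 15 smallest p, as the 5 smallest p of each difference, and, after their values were seen, as up to 4 members of each list by smallest p, with other members named where their groups did not overlap or their list's description called for them.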

Additional observations from a re-analysis of the deposited data

Results flagged for a closer look

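For 5 genes the change with aldosterone differed between C57 fibroblasts, which received conditioned medium, and C57 myotubes, which received the hormone, by edgeR's test of the difference with Benjamini-Hochberg adjustment. Cdh13, a cadherin anchored to the membrane by lipid, lay at 110.0, 85.4 and 91.2 CPM in vehicle medium and 74.4, 66.4 and 65.5 CPM in aldosterone medium in fibroblasts. The myotube values were 206, 195 and 194 CPM with vehicle and 322, 336 and 285 CPM with aldosterone. All aldosterone values were thus lower in fibroblasts and higher in myotubes, and the difference on the log2 scale, fibroblasts minus myotubes, was -1.14 (adjusted p = 0.0154).

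Nr1d1, a clock repressor, overlapped between media in fibroblasts (53.5, 50.4 and 54.6 against 58.6, 50.1 and 59.3 CPM) and lay at 32.7, 31.3 and 32.2 against 53.7, 56.3 and 60.4 CPM in myotubes, a difference of -0.74. Hspb1, a small heat shock protein, lay at 41.3, 43.6 and 40.7 against 39.4, 38.9 and 38.6 CPM in fibroblasts and 267, 261 and 266 against 358, 364 and 345 CPM in myotubes, a difference of -0.53. Mylk2, a myosin light chain kinase of skeletal muscle, lay at 12.8, 13.4 and 11.6 against 9.45, 7.81 and 9.55 CPM and 9.01, 9.85 and 9.49 against 12.8, 14.3 and 14.8 CPM, a difference of -1.05. Chrd, chordin, went the other way, at 9.11, 11.8 and 11.8 against 15.2, 15.0 and 14.5 CPM in fibroblasts and 39.7, 33.9 and 32.1 against 22.5, 25 and 24.1 CPM in myotubes, a difference of 1.02. These 4 had an adjusted p of 0.0338 by edgeR. Without each of the 12 C57 libraries in turn, between 0 and 5 genes passed, with 0 without fibroblast aldosterone replicate 2 or 3, myotube vehicle replicate 2 or 3, or myotube aldosterone replicate 2.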

How the results depend on the processing

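The direction was the same in every alternative that gave a value for 189 of 194 genes followed singly in the C57 comparison, which hold those named above. The other 5 were Ccn2, Nr3c2, Id1, Slc7a11 and Acox2, all with a log2 change near 0. Many of the 194 were named for a small p or for groups without overlap, so a kept direction was largely set by that choice. Without aldosterone replicate 3, Ccn2, Nr3c2 and Id1 turned negative, at -0.051, -0.11 and -0.020 over 12 libraries and at -0.052, -0.11 and -0.021 over the 6 compared. Without one replicate, Ccn2 ranged from -0.051 to 0.22, Nr3c2 from -0.11 to 0.19, Id1 from -0.020 to 0.24 and Slc7a11 from -0.098 to 0.038, with 0.036 without vehicle replicate 2 and 0.0026 without aldosterone replicate 3 over the 6. Acox2, under 2 CPM, was at 0.0027 with DESeq2 size factors, 0.011 with DESeq2 over 12 or 6 libraries, 0.040 and 0.036 with the replicate block over 12 and 6, and 0.40 without the 3 deepest libraries. Without one replicate it ranged from -0.21 to 0.40, and over the 6 it was 0.40 without vehicle replicate 1 and 0.15 without aldosterone replicate 3. List medians kept their sign in all alternatives for 14 of 21 lists described, the exceptions being BMP, chemokine, corticosteroid target, receptor and handling, collagen, growth factor and proteoglycan genes, and that of mitosis genes lay between 0.30 and 0.37.

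The count of genes passing, 0 by the main test, was 65 with no filter (22 higher, 43 lower), 74 with DESeq2, 5 with only the 6 libraries, 431 with DESeq2 on those 6, and 77 without the 3 deepest libraries (51 higher, 26 lower). It was 0 to 44 without one library of the 12 in turn: 44 without mdx aldosterone replicate 2, 1 without mdx vehicle replicate 2, 1 without mdx aldosterone replicate 1 and 0 otherwise. With the 6 libraries only it was 0 to 79 without one: 79 without C57 vehicle replicate 1, 25 without C57 vehicle replicate 3, 1 without C57 aldosterone replicate 2. With the replicate block the count was 0 over 12 libraries and 811 over the 6; a shared number is not stated to mean a shared preparation. Deviations from group means correlated between same-numbered libraries at -0.02, 0.11 and 0.08 in C57 and at 0.16, 0.29 and 0.10 in mdx. Between libraries of different number they correlated at -0.21 to 0.16 in C57 and at -0.19 to 0.08 in mdx. Every same-numbered value in mdx was above that range, and those in C57 lay inside it. Whether numbers pair the libraries was not tested, and the main test did not pair them. Genes at an unadjusted p below 0.05, 1996, were 3166 with the block over 6 libraries, and 982 to 2500 without one library, with 2500 without mdx aldosterone replicate 2, 982 without vehicle replicate 1 and 1093 without aldosterone replicate 3. In mdx the count, 0, was 2 with no filter and 0 to 24 without one library, with 24 without aldosterone replicate 2 and 1 without vehicle replicate 3. For the difference between cell types, 5, it was 66 with no filter, 78 with DESeq2, 275 with the replicate block and 0 to 5 without one library. For C57 myotubes, 2, it was 785 with the replicate block. The cause of these shifts was not tested; leaving out a library also leaves fewer samples.

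Alternatives on the mdx libraries, the 3 deepest libraries, DESeq2 on the 6 and the 6 without each library were chosen after seeing the data. Genes of few counts, such as Gdpd2, Hsd11b1 and Aloxe3, are limited by depth.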

Other observations

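Some further lists are given by their genes without overlap between the media, beside 10.8% of all genes higher and 10.7% lower. Autophagy and lysosome genes gave 2 higher and 6 lower of 29. Among the lower were Npc1, which exports cholesterol from lysosomes, at 88.4, 81.5 and 81.6 against 67.7, 71.8 and 69.1 CPM, and Sqstm1, an autophagy receptor, at 1105, 993 and 983 against 905, 863 and 928 CPM. Glycolysis and hypoxia genes gave 3 higher and 7 lower of 28, and respiratory chain genes 5 higher and 0 lower of 31. Antioxidant genes under NRF2 gave 3 higher and 6 lower of 30. Heat shock and unfolded protein response genes gave 5 higher and 2 lower of 28, with 0 at an unadjusted p below 0.05 in either direction.

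Complement genes gave 4 higher and 1 lower of 19. The proteases C1ra and C1s1 lay at 29.6, 50.8 and 60.7 against 75.6, 74.9 and 79.8 CPM and 28.6, 49.2 and 51.9 against 64.5, 60.8 and 65.6 CPM, and their inhibitor Serping1 at 3.11, 3.52 and 7.02 against 9.92, 10.0 and 10.7 CPM, all higher without overlap, in contrast to C3. Vehicle replicate 1 was the lowest library for all 3, and without it the log2 changes of C1ra and C1s1 were 0.46 and 0.33, against 0.71 and 0.56. Interferon-stimulated genes gave 3 higher and 1 lower of 29. Meltf, a membrane transferrin family member picked after its values were seen, lay at 106, 42.1 and 60.6 CPM in vehicle medium and at 22.3, 28.4 and 10.7 CPM in aldosterone medium, with a log2 change of -1.78 (SE 0.53) and no overlap. Vehicle replicate 1 was its highest library, and over 28 alternative settings the log2 change lay between -2.08 and -1.34. Cav1, the main protein of caveolae, and Gas6, a ligand of TAM receptors, were also picked after their values were seen, from genes called by DESeq2. Cav1 lay at 178, 282 and 272 CPM in vehicle medium and at 364, 327 and 421 CPM in aldosterone medium and Gas6 at 634, 1014 and 1002 CPM in vehicle medium and at 1198, 1306 and 1308 CPM in aldosterone medium, both higher in each aldosterone-medium library.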
